A study of Mus musculus with 28 samples.

Results

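This account describes 40 genes that are characteristic of macrophages or that work in antigen presentation, in pancreatic islets of mice labelled βKlf6KO or control and treated with S961 or saline. The genes were chosen by name, and 38 of the 40 had a row in the deposited table of 14219 genes. Cd163 and Chil3 were not analysed here. RNA was sequenced from islets of 28 male mice aged 10 to 12 weeks on a mixed C57Bl6 and 129sv background, with each mouse giving 1 library. The βKlf6KO mice carried Klf6flox/flox alleles and Cre in 1 Ins1 allele (Klf6flox/flox;Ins1Cre/+), so the deletion of the transcription factor Klf6 is directed to β cells. The control mice carried the same Klf6flox/flox alleles with intact Ins1 (Klf6flox/flox;Ins1+/+). All mice therefore had floxed Klf6. S961 is a peptide that blocks the insulin receptor and raises the demand for insulin. There were 8 libraries labelled βKlf6KO after S961, 6 labelled βKlf6KO after saline, 8 labelled control after S961 and 6 labelled control after saline. The islets were released by Liberase, picked by hand and kept overnight in medium, and 120 to 150 islets were used per mouse, so each library holds RNA of every cell type that came with the picked islets.

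Mouse islets contain resident macrophages, which lie next to β cells and blood vessels, depend on signalling through the receptor Csf1r and carry MHC class II at rest. Such cells take up material from β cells, cut proteins with lysosomal cathepsins and load the peptides onto class II molecules with the help of the invariant chain Cd74 and the H2-DM pair. B cells and dendritic cells also carry class II, and several leukocyte genes on the list, such as Ptprc, Coro1a, Cd52 and Cd53, are expressed in lymphocytes too. Class II genes share promoter boxes (X and Y) that bind the factors which recruit the transactivator Ciita.

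Promoters of 3 class II members are shown because they hold a common short motif close to the gene start. Each line gives 300 bases, 250 before and 50 after the gene start, from RefSeq on GRCm38.p6, on the gene's own strand. The windows are chr17:34287774-34288073 on the minus strand for H2-Aa, chr17:34305617-34305916 on the plus strand for H2-Eb1 and chr17:34152941-34153240 on the plus strand for H2-DMb1. Capitals mark the letters TGATTGG, the core of the Y box, and in H2-Eb1 and H2-DMb1 also a 13-base run, AACTGATGATGCT, the longest that these 2 windows share.
H2-Aa: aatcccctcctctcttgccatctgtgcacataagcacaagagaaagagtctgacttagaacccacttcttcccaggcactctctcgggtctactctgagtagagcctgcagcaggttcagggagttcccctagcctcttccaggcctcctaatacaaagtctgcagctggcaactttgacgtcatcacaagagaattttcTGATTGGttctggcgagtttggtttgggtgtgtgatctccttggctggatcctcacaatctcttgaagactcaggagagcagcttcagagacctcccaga
H2-Eb1: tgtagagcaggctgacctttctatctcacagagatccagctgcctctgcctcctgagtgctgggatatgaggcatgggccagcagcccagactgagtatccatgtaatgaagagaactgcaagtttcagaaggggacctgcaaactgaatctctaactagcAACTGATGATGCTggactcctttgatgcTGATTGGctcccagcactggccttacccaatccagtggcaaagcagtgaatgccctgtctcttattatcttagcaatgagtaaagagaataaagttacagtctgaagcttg
H2-DMb1: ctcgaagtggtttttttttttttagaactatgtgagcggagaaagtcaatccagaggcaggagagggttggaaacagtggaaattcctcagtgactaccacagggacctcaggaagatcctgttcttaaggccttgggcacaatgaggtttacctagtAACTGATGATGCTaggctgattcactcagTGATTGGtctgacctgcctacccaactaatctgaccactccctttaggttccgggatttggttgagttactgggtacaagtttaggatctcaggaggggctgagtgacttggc
TGATTGG, searched on both strands, begins 50 bases before the start in H2-Aa, 61 in H2-Eb1 and 63 in H2-DMb1. The motif was in the windows of 3 of the 4 class II members that had a window in the table, and in 4 of 27 members in all, the other being Cd68. Over all 32851 windows of this length, 2568 held it, or 7.817%. The 13-base run occurred in 3 of the 32851 windows, those of H2-DMb1, H2-Eb1 and Slc39a10. It ended 15 bases before the TGATTGG of H2-Eb1 and 16 before that of H2-DMb1. GAGGAAGT, a form of the site bound by PU.1 (the product of Spi1), was in 1052 windows, or 3.202%, among them those of the members C1qc, Cd53 and Ctss. These matches are descriptions of letters and were not tied to the values below.

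Reads over listed genes numbered 28868638 to 45001633 per library. Klf6 RNA, the check on the labels, had 83.3, 162 and 246 CPM (reads scaled to library size; lowest, median and highest) in libraries labelled βKlf6KO S961 against 72.4, 111 and 342 CPM in libraries labelled control S961. After saline it had 103, 119 and 170 CPM in libraries labelled βKlf6KO against 81.7, 127 and 204 CPM in libraries labelled control. The groups overlapped and the difference was 0.28 ± 0.25 (log2, SE) after S961 (limma, adjusted p = 0.517) and -0.03 ± 0.29 after saline (adjusted p = 0.974), so the genotype is given as labelled throughout. Whether the counted reads fall in the deleted stretch is not known here. Ins2, the most abundant marker of β cells, varied widely between libraries. Its lowest and highest levels were 5080 and 154000 CPM in libraries labelled control S961 and 9150 and 104000 CPM in those labelled control saline. They were 19100 and 92400 CPM in those labelled βKlf6KO S961 and 38800 and 92400 CPM in those labelled βKlf6KO saline. The lowest control libraries were S961 replicate 2 and saline replicate 4. Libraries stood apart in 2 ways that touch the members. A first principal component with 54.9% of the variance was highest in control S961 replicate 2, control saline replicate 4 and control S961 replicate 8. Its sign was set so that Ins2 ran against it. Lymphocyte genes were high in some libraries of 3 of the 4 groups, as given beside the results.

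The members spanned a wide range of levels. Per length (CPM per kilobase of the longest coding transcript, median of libraries labelled control saline), the most abundant were Lyz2, a lysozyme of myeloid cells, at 33.0, C1qa, a subunit of complement C1q, at 20.8, and Ctss, the cathepsin that trims the invariant chain, at 19.6. The class II α chain H2-Aa at 14.2 and Cd74 at 13.8 came next, followed by the adaptor Tyrobp at 10.5 and Mpeg1, a pore-forming protein of macrophages, at 9.51. H2-Aa and Cd74 did not differ beyond their spread, since their ranges between libraries overlapped widely. Csf1r stood at 0.998 on this scale, Adgre1, the F4/80 antigen, at 1.26, and the chemokine receptor Cx3cr1 close to Csf1r. The macrophage markers Csf1r, Adgre1, Cd68, Lyz2, Ctss, Cx3cr1 and Mpeg1 were each above 1 CPM in 28 of 28 libraries, so macrophage RNA was measurable in every labelled group.

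At the low end, 3 members did not reach 1 CPM in 6 libraries and were left out of the tests. Ciita, the transactivator of class II, had 42 reads or fewer in each library labelled βKlf6KO S961, up to 151 in those labelled βKlf6KO saline, and at most 18 and 5 reads in those labelled control S961 and control saline. Spi1, which encodes PU.1, and Itgam, the CD11b chain, were above 1 CPM in 3 libraries each, all labelled βKlf6KO. Of the 38 members in the table, 35 passed the filter of 1 CPM in 6 libraries, and 30 of these would have passed on control libraries alone. The 5 that needed libraries labelled βKlf6KO were Fcgr1, Mrc1, Ccr2, H2-DMb1 and Cd52, so counts of higher members below are descriptions and are read with that in mind.

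**Figure D1:**
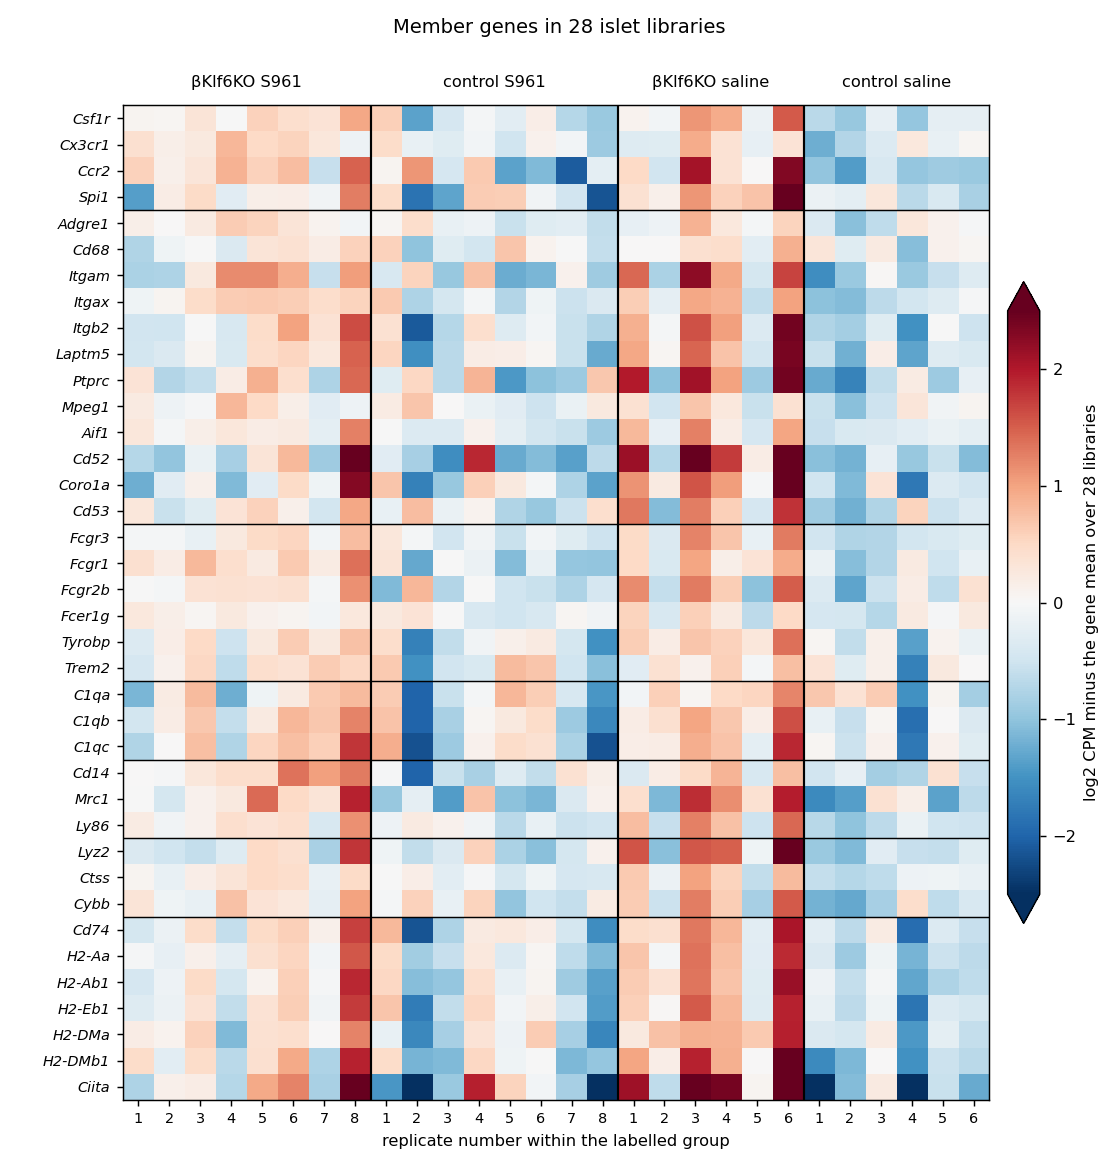
Colour shows log2 CPM minus the gene's mean over 28 libraries for the 38 members in the table (rows, in blocks by role: receptors and Spi1, leukocyte and macrophage identity, Fc receptors and adaptors, C1q, pattern recognition, lysosome and oxidase, class II) in each library (columns, by labelled group and replicate). Replicates 3, 4 and 6 labelled βKlf6KO saline and replicate 8 labelled βKlf6KO S961 are red in most rows, and the C1q rows are blue in control S961 replicate 2 and control saline replicate 4.

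The sum of the 38 members in each library gives the scale of the differences between mice. It was 314, 377 and 830 CPM (lowest, median and highest) in libraries labelled βKlf6KO S961 against 265, 293 and 433 CPM in those labelled control S961. After saline it was 299, 622 and 1280 CPM in libraries labelled βKlf6KO against 209, 275 and 306 CPM in those labelled control. The highest sums belonged to βKlf6KO saline replicate 6 and βKlf6KO S961 replicate 8, while βKlf6KO saline replicates 2 and 5, at 312 and 299 CPM, lay at the top of the control range or just above it. In RNA of whole islets, more cells of a type and more RNA per cell cannot be told apart.

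After saline, many of the members were higher in the labelled βKlf6KO group, in a comparison the design names. Of 35 tested members, 12 rose at an adjusted p below 0.05 and none fell, or 34.3%, where 378 of all 13591 genes tested were called (2.78%), 2.09% higher and 0.692% lower. All 35 differences were above 0, with a median of 1.10 on the log2 scale and a range of 0.33 for Fcer1g to 2.46 for Cd52. Over all genes 49.9% were above 0 and the median was 0. An unadjusted p below 0.05 (limma) was reached by 28 of the 35 members and by 1953 of the 13591 genes. The 12 members that rose were Csf1r, Ccr2, Itgax, Itgb2, Cd52, Fcgr3, Ly86, Lyz2, Ctss, H2-Aa, H2-DMa and H2-DMb1. Of these, Ccr2, Cd52 and H2-DMb1 needed libraries labelled βKlf6KO to pass the filter, so their calls are descriptions only. Ranges did not overlap for 5 members, Csf1r, Tyrobp, C1qb, H2-DMa and H2-DMb1, all with βKlf6KO above control. Of all genes tested, 2.46% had every library labelled βKlf6KO above every library labelled control and 1.64% had every one below. The test was limma over all 28 libraries, and every adjusted p below is limma's with Benjamini-Hochberg adjustment over 13591 genes.

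Of 3 tested receptors that maintain or guide myeloid cells, 2 rose. Csf1r, the receptor for the growth factors Csf1 and Il34 (ENSMUSG00000024621, GRCm38 chromosome 18, 61100598 to 61132149, plus strand), had 5.75, 9.44 and 18.4 CPM in libraries labelled βKlf6KO saline against 3.24, 4.69 and 5.49 CPM in those labelled control saline. Every library labelled βKlf6KO was above every library labelled control, with replicates 3, 4 and 6 well above the others, and the difference was 1.12 ± 0.29 (log2, SE; 2.17-fold; adjusted p = 0.0357). Ccr2, which draws monocytes into tissues (ENSMUSG00000049103, chromosome 9, 124101950 to 124113557, plus strand), had 0.524, 0.976 and 3.64 CPM against 0.277, 0.379 and 0.551 CPM in controls. Only βKlf6KO replicate 2, the lowest, fell within the control range of Ccr2, and the difference was 1.72 ± 0.48 (adjusted p = 0.0453). Cx3cr1, the fractalkine receptor of resident macrophages, differed by 0.50 ± 0.24 (adjusted p = 0.347). Without a filter the low member Spi1 differed by 1.27 ± 0.49 (adjusted p = 0.171).

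Among 11 tested genes of leukocyte and macrophage identity, 3 rose, and the median difference was 1.11. Cd52, a small surface protein of lymphocytes and some myeloid cells (ENSMUSG00000000682, chromosome 4, 134082448 to 134095082, minus strand), had 0.856, 5.47 and 15.4 CPM in libraries labelled βKlf6KO saline against 0.619, 0.708 and 1.24 CPM in those labelled control saline. Replicates 1, 3, 4 and 6 stood far above the controls, replicate 2 lay within them, and the difference was 2.46 ± 0.66 (adjusted p = 0.0378). Itgb2, the common β chain of leukocyte integrins (ENSMUSG00000000290, chromosome 10, 77530252 to 77565708, plus strand), had 2.91, 7.11 and 19.4 CPM against 1.27, 2.37 and 3.66 CPM in controls, a difference of 1.58 ± 0.44 (adjusted p = 0.0470). Replicates 2 and 5 of Itgb2 lay within the control range. Itgax, the CD11c chain found on islet macrophages and dendritic cells (ENSMUSG00000030789, chromosome 7, 128129547 to 128150657, plus strand), had 3.47, 8.86 and 10.6 CPM against 2.49, 3.59 and 5.19 CPM in controls, a difference of 1.03 ± 0.26 (adjusted p = 0.0294).

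Other identity genes did not pass. The lysosomal protein Laptm5 differed by 1.46 (adjusted p = 0.0542), the actin regulator Coro1a by 1.85 (0.0650) and the pan-leukocyte phosphatase Ptprc by 1.66 (0.108). The tetraspanin Cd53 differed by 1.11 (0.143) and Aif1, the calcium-binding protein Iba1, by 0.77 (0.103). The smallest differences of this group were those of the macrophage genes Adgre1 at 0.50 (0.265), Mpeg1 at 0.42 (0.463) and Cd68, a lysosomal glycoprotein, at 0.36 (0.630). Mpeg1 had 34.2, 63.0 and 81.4 CPM in libraries labelled βKlf6KO saline against 24.3, 41.2 and 62.1 CPM in those labelled control saline, so the groups overlapped over much of their range.

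Among the Fc receptors and their adaptors, 1 of 6 rose, the activating receptor Fcgr3 (ENSMUSG00000059498, chromosome 1, 171051174 to 171064935, minus strand). It had 2.57, 4.97 and 8.18 CPM in libraries labelled βKlf6KO saline against 1.96, 2.39 and 2.69 CPM in those labelled control saline. βKlf6KO replicate 2 alone lay within the control range, and the difference of 1.04 ± 0.24 had the smallest adjusted p of the members (0.0126). Fcgr3 and Fcgr2b are near-identical over part of their sequence, and reads may be split between them. The inhibitory receptor Fcgr2b differed by 0.88 (adjusted p = 0.264), the high-affinity receptor Fcgr1 by 0.83 (0.136), the adaptor Tyrobp by 0.93 (0.136) and the lipid receptor Trem2, which signals through Tyrobp, by 0.46 (0.652). The other adaptor, Fcer1g, differed by 0.33 ± 0.20 (0.518). No C1q subunit passed, with C1qb at 1.16 ± 0.42 (adjusted p = 0.151), C1qc at 0.99 ± 0.51 (0.382) and C1qa at 0.58 ± 0.46 (0.649). The 3 genes lie side by side on chromosome 4 between 136880129 and 136898803. C1qb ranges nevertheless did not overlap, at 9.59, 12.4 and 26.2 CPM in libraries labelled βKlf6KO saline against 2.32, 7.08 and 8.86 CPM in those labelled control saline.

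Of 3 tested pattern recognition genes Ly86 rose, and of 3 lysosome and oxidase genes Lyz2 and Ctss rose. Ly86, the partner of the Toll-like protein Cd180 (ENSMUSG00000021423, chromosome 13, 37345208 to 37419036, plus strand), had 2.06, 5.16 and 8.23 CPM in libraries labelled βKlf6KO saline against 1.51, 2.04 and 2.73 CPM in those labelled control saline (difference 1.10 ± 0.29, adjusted p = 0.0359). Replicates 2 and 5 lay inside the control range of Ly86 and the other 4 above it. Lyz2 (ENSMUSG00000069516, chromosome 10, 117277331 to 117282321, minus strand) had 31.5, 185 and 474 CPM against 30.4, 43.5 and 53.4 CPM in controls. Its replicates were again unequal, since 4 lay at 182 CPM or above while replicates 2 and 5 stood at 31.5 and 59.9 CPM, and the difference was 1.68 ± 0.46 (adjusted p = 0.0453). Lyz2 has a near-identical neighbour, Lyz1, so its count is uncertain. Ctss (ENSMUSG00000038642, chromosome 3, 95526786 to 95556403, plus strand) had 22.5, 52.8 and 69.0 CPM against 21.1, 26.6 and 31.7 CPM in controls, a smaller difference of 0.77 ± 0.21 (adjusted p = 0.0373). The mannose receptor Mrc1 differed by 1.51 (0.0935), the oxidase subunit Cybb by 1.09 (0.102) and the lipopolysaccharide co-receptor Cd14 by 0.66 (0.359).

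The class II pathway had 6 tested members with a narrow spread of differences, 1.34 to 1.98 and a median of 1.38, and 3 of them rose. H2-Aa (ENSMUSG00000036594, chromosome 17, 34282744 to 34287823, minus strand) had 19.7, 39.8 and 87.9 CPM in libraries labelled βKlf6KO saline against 10.7, 16.0 and 22.5 CPM in those labelled control saline. Only βKlf6KO replicate 5 lay in the control range, and the difference was 1.34 ± 0.33 (adjusted p = 0.0240). H2-DMa, the α chain of the peptide editor (ENSMUSG00000037649, chromosome 17, 34119541 to 34139101, plus strand), had 2.65, 3.89 and 8.62 CPM against 0.822, 1.69 and 2.57 CPM in controls, a difference of 1.37 ± 0.38 (adjusted p = 0.0470). H2-DMb1, its β chain (ENSMUSG00000079547, chromosome 17, 34153072 to 34160230, plus strand), had 0.732, 1.38 and 4.11 CPM against 0.239, 0.392 and 0.729 CPM in controls, a difference of 1.98 ± 0.46 (3.95-fold, adjusted p = 0.0146). The lowest βKlf6KO library and the highest control library of H2-DMb1 nearly touched. H2-DMb1 has a near-identical neighbour, H2-DMb2, and H2-DMa overlaps Brd2 in the annotation, so both counts are uncertain. H2-Ab1, the β chain that pairs with H2-Aa, differed by 1.40 (adjusted p = 0.0508), H2-Eb1 by 1.36 (0.0921) and Cd74 by 1.39 (0.105). Without a filter Ciita differed by 3.54 ± 0.92 (adjusted p = 0.0318), with 0 to 5 reads in each library labelled control saline.

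**Figure D2:**
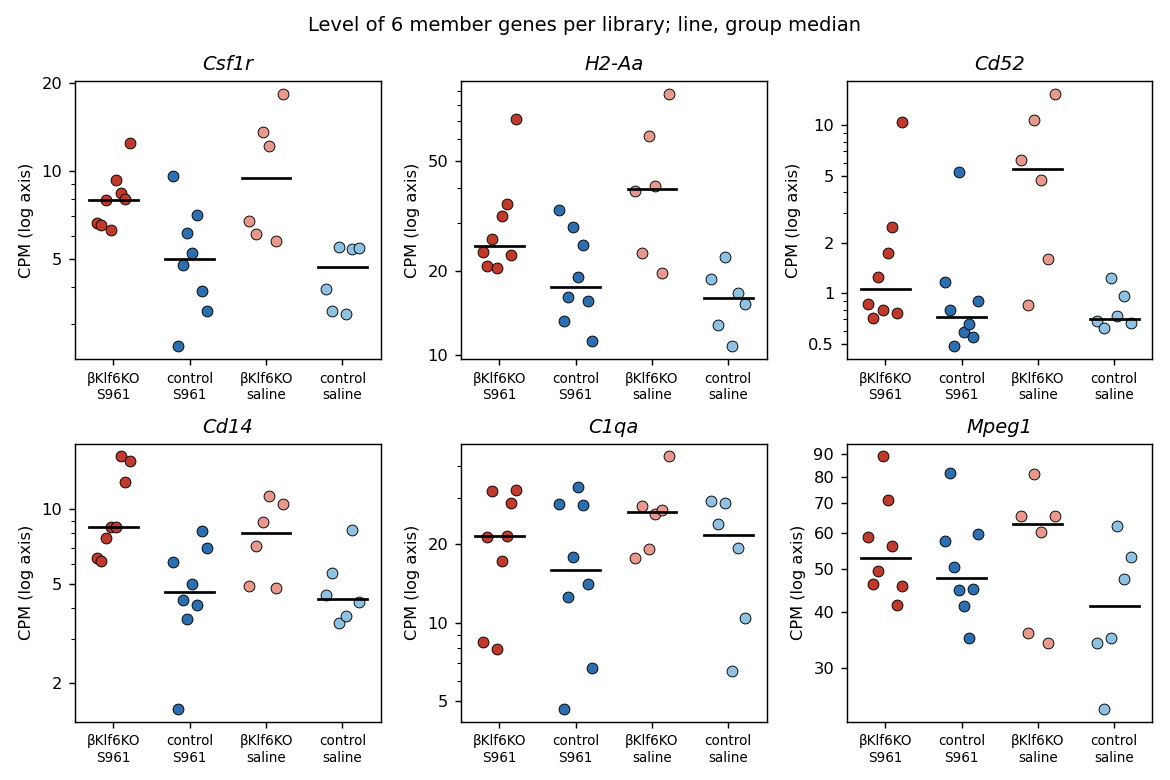
Each point is 1 library and gives CPM on a log axis for 6 members, with the group median as a line. For Csf1r every βKlf6KO saline point lies above every control saline point, for Cd52 and H2-Aa the βKlf6KO saline points spread widely, and for C1qa and Mpeg1 the groups overlap.

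The count of 12 moved when single saline libraries of either labelled genotype were left out. The median difference of the 35 members, 1.10 in the main fit, then ran from 0.92 to 1.26. Leaving out βKlf6KO saline replicate 6 left 1 member called, Fcgr3, at an adjusted p of 0.0487, and 214 of all genes (1.57%). Without βKlf6KO saline replicate 3 or 4 the count was 2, where 1.78% or 1.6% of all genes were called. Without replicate 1 it was 5 (1.91% of all genes), and without replicate 2 it was 19 (3.78%). Without control saline replicate 1, 2, 3, 4 or 6 it was 3, 2, 5, 6 or 4. The matching shares of all genes were 1.57%, 1.69%, 1.79%, 2.74% and 1.72%, so calls over all genes moved as well. Fcgr3 was called in 28 of 28 such fits, H2-DMb1 in 27, Csf1r and H2-Aa in 22, Itgax in 21, Ctss and Ly86 in 20, Cd52 in 18, Ccr2, Itgb2 and Lyz2 in 9, and H2-DMa in 8. Within each of the 4 sequencing lanes, which held 1 or 2 libraries per group, the median difference of the 35 members was 1.19, 0.85, 1.28 and 0.99. All 12 called members were above 0 in every lane, but they were called on these same libraries, so their signs add no separate support.

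Genes of other cells moved with the members after saline. Of 9 tested lymphocyte genes 2 were called, among them the B cell gene Cd22 (2.40 ± 0.51, adjusted p = 0.00689), with a list median of 4.14. The 15 lymphocyte genes in the table summed to 6.96, 226 and 841 CPM in libraries labelled βKlf6KO saline against 6.05, 7.27 and 25.9 CPM in those labelled control saline. Over all libraries the highest counts on this list were 21694 reads for Ighm and 11193 for Igkc, and the next was 1008 for Ms4a1. The largest sums therefore rest mainly on these immunoglobulin genes. The sum was 195, 841, 257 and 310 CPM in replicates 1, 3, 4 and 6, and 6.96 and 40.7 CPM in replicates 2 and 5, which were also the replicates with the lowest member sums. Cd3d was at 0 reads in 14 of the 28 libraries, Cd3g in 11 and Ms4a1 in 8. Of 4 tested dendritic cell genes the chemokine receptor Ccr7 was called (4.47 ± 1.17, adjusted p = 0.0344), and the 5 in the table summed to 5.56, 15.1 and 54.3 CPM against 5.07, 6.03 and 8.29 CPM in controls. Of 11 fibroblast and stellate cell genes Col3a1 (1.44) and Col1a2 (1.5) were called, with sums of 37.9, 93.5 and 197 CPM against 25.7, 42.8 and 77.4 CPM. None of 11 endothelial genes was called (limma; the smallest adjusted p was 0.155, for Kdr), and the median was 0. Of 12 β cell genes 2 were lower, Nkx6-1 (-0.48 ± 0.12, adjusted p = 0.0311) and Slc2a2 (-0.73 ± 0.19, 0.0362), with a list median of -0.23. None of 10 acinar cell genes was called (smallest adjusted p 0.895, for Try5), and their median was -0.06. All 12 proliferation genes were higher, with a median of 3.44. With the mean of the lymphocyte list as a covariate, a fit chosen after the data were seen, 0 of the 35 members were called and their median difference was 0.41. Calls over all genes were 55 in that fit, against 378 without the covariate. The covariate holds lymphocyte genes only and itself differed between the groups, so the fit cannot separate it from the labelled genotype. The part of these other cells in the members' differences was not tested.

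**Figure D3:**
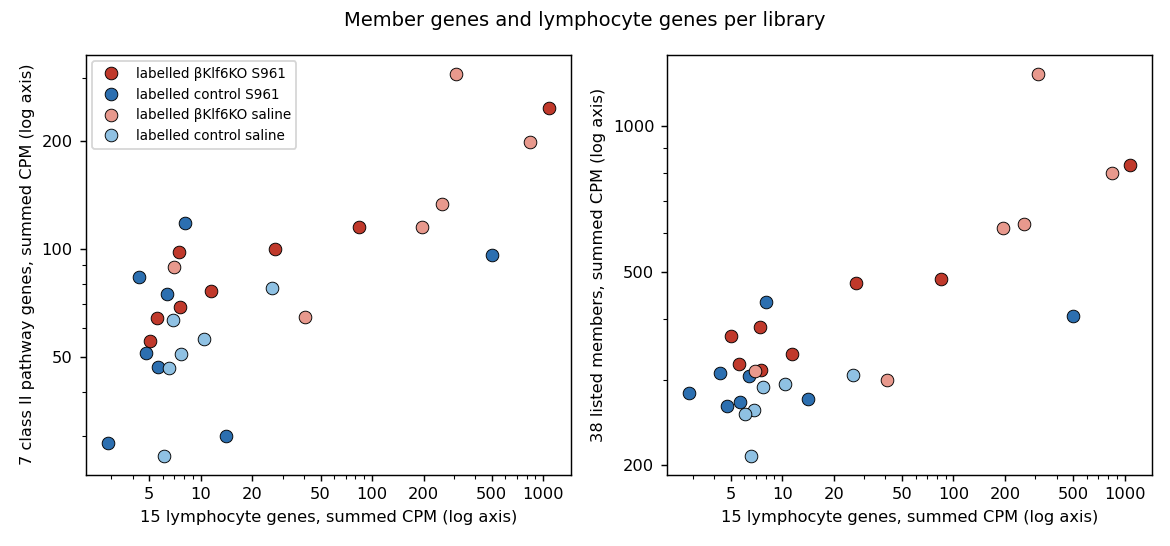
Each point is 1 library, with the summed CPM of 15 lymphocyte genes on the horizontal log axis and the summed CPM of the 7 class II pathway genes (left) or of all 38 members in the table (right) on the vertical log axis. The libraries with the largest lymphocyte sums, βKlf6KO S961 replicate 8 at 1080 CPM and βKlf6KO saline replicate 3 at 841 CPM, also have large member sums, while control S961 replicate 4, at 500 CPM, has a member sum of 406 CPM. Large lymphocyte sums rest mainly on the immunoglobulin genes Ighm and Igkc.

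After S961, 2 of the 35 tested members rose in libraries labelled βKlf6KO and none fell, or 5.71%, where 593 of 13591 genes were called (4.36%), 2.35% higher and 2.01% lower. This share is near that of all genes. Of the 2 that rose, Cd14 and Fcgr1, the latter needed libraries labelled βKlf6KO to pass the filter, so its call is a description only. All 35 differences were again above 0, with a median of 0.61 and a range of 0.14 for Mpeg1 to 1.09 for Cd14, against 52.4% above 0 and a median of 0.02 over all genes. An unadjusted p below 0.05 (limma) was reached by 16 of the 35 members and by 3107 of the 13591 genes. No member had groups that did not overlap, where 0.103% of all genes had every library labelled βKlf6KO above every library labelled control and 0.28% had every one below.

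Cd14 (ENSMUSG00000051439, chromosome 18, 36725067 to 36726798, minus strand) had 6.18, 8.51 and 16.3 CPM in libraries labelled βKlf6KO S961 against 1.57, 4.66 and 8.14 CPM in those labelled control S961. Replicates 4 to 8 labelled βKlf6KO lay above every control, control replicate 2 lay far below the rest, and the difference was 1.09 ± 0.29 (adjusted p = 0.0332). Fcgr1, the high-affinity Fc receptor of macrophages (ENSMUSG00000015947, chromosome 3, 96282909 to 96293969, minus strand), had 1.16, 1.35 and 2.63 CPM against 0.421, 0.709 and 1.27 CPM in controls. The ranges of Fcgr1 met only at control replicate 1, its level was low at 12 to 76 reads per library, and the difference was 1.08 ± 0.25 (adjusted p = 0.0198). Leaving out each library in turn, Fcgr1 was called in 27 of 28 fits and Cd14 in 22. The count of members was 0 without βKlf6KO S961 replicate 8, where 1.41% of all genes were called. It was 1 without βKlf6KO S961 replicate 6 or 7 (1.3% or 1.55% of all genes). It was also 1 without control S961 replicate 2, 3 or 5 (1.59%, 1.39% or 1.8%). Without control S961 replicate 1 it was 4 (5.64%).

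The members nearest to passing came from several roles. Itgax differed by 0.70 ± 0.23 (adjusted p = 0.0688), with 4.92, 7.49 and 8.35 CPM in libraries labelled βKlf6KO S961 against 3.08, 3.99 and 8.33 CPM in those labelled control S961. Control replicate 1 alone carried that upper value, and the next highest control stood at 5.14 CPM. Aif1 differed by 0.61 ± 0.22 (adjusted p = 0.0945), Csf1r by 0.71 ± 0.25 (0.0978) and Cx3cr1 by 0.54 ± 0.21 (0.127). In the class II pathway the 6 differences lay between 0.60 and 0.76, with adjusted p of 0.169 for H2-DMa and 0.207 for H2-Aa. Among lysosome and oxidase genes Ctss differed by 0.39 (0.191) and Cybb by 0.39 (0.451), and among C1q subunits C1qb by 0.83 (0.174) and C1qc by 0.89 (0.226).

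H2-Aa showed how 1 mouse set the range after S961, with 20.5, 24.8 and 71.0 CPM in libraries labelled βKlf6KO against 11.2, 17.5 and 33.3 CPM in those labelled control. βKlf6KO replicate 8 stood at 71.0 CPM of H2-Aa and the next highest, replicate 6, at 35 CPM. That replicate also had a lymphocyte sum of 1080 CPM, where the sums of the group were 5.01, 9.47 and 1080 CPM against 2.85, 6.00 and 500 CPM in controls, and it had the highest sum of acinar cell genes. None of 9 tested lymphocyte genes was called after S961 (limma; smallest adjusted p 0.0645, for Lck), with a median of 0.94. Of 11 genes of fibroblasts and stellate cells, 6 rose, led by Col1a2 (1.57 ± 0.33, adjusted p = 0.0111), with sums of 65.8, 115 and 156 CPM against 32.5, 48.6 and 81.4 CPM. Of 10 tested acinar cell genes 1 rose, the trypsin gene Try5 (1.45 ± 0.34, adjusted p = 0.0198), the list median was 1.03, and the sums were 24500, 26700 and 102000 CPM against 4200, 22900 and 36700 CPM. Of 12 β cell genes 4 were lower, among them Pdx1 (-0.47 ± 0.08, adjusted p = 0.0045) and Slc2a2 (-0.88 ± 0.17, 0.00611), and of 12 proliferation genes 6 were higher, with a median of 1.77. None of 11 endothelial genes was called (smallest adjusted p 0.234, for Vwf). Within the 4 lanes, with 2 libraries per group each, the median difference of the members was -0.25, 0.67, 0.61 and 1.35, so the direction of the median did not hold in 1 lane. Cd14 and Fcgr1 were above 0 in all 4, but they were called on these same libraries, so their signs add no separate support. With the lymphocyte mean as a covariate 1 member was called and the median was 0.39, while calls over all genes were 171, where 593 were made without the covariate. That covariate holds lymphocyte genes only. The part of these other cells in the members' differences was not tested.

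**Figure D4:**
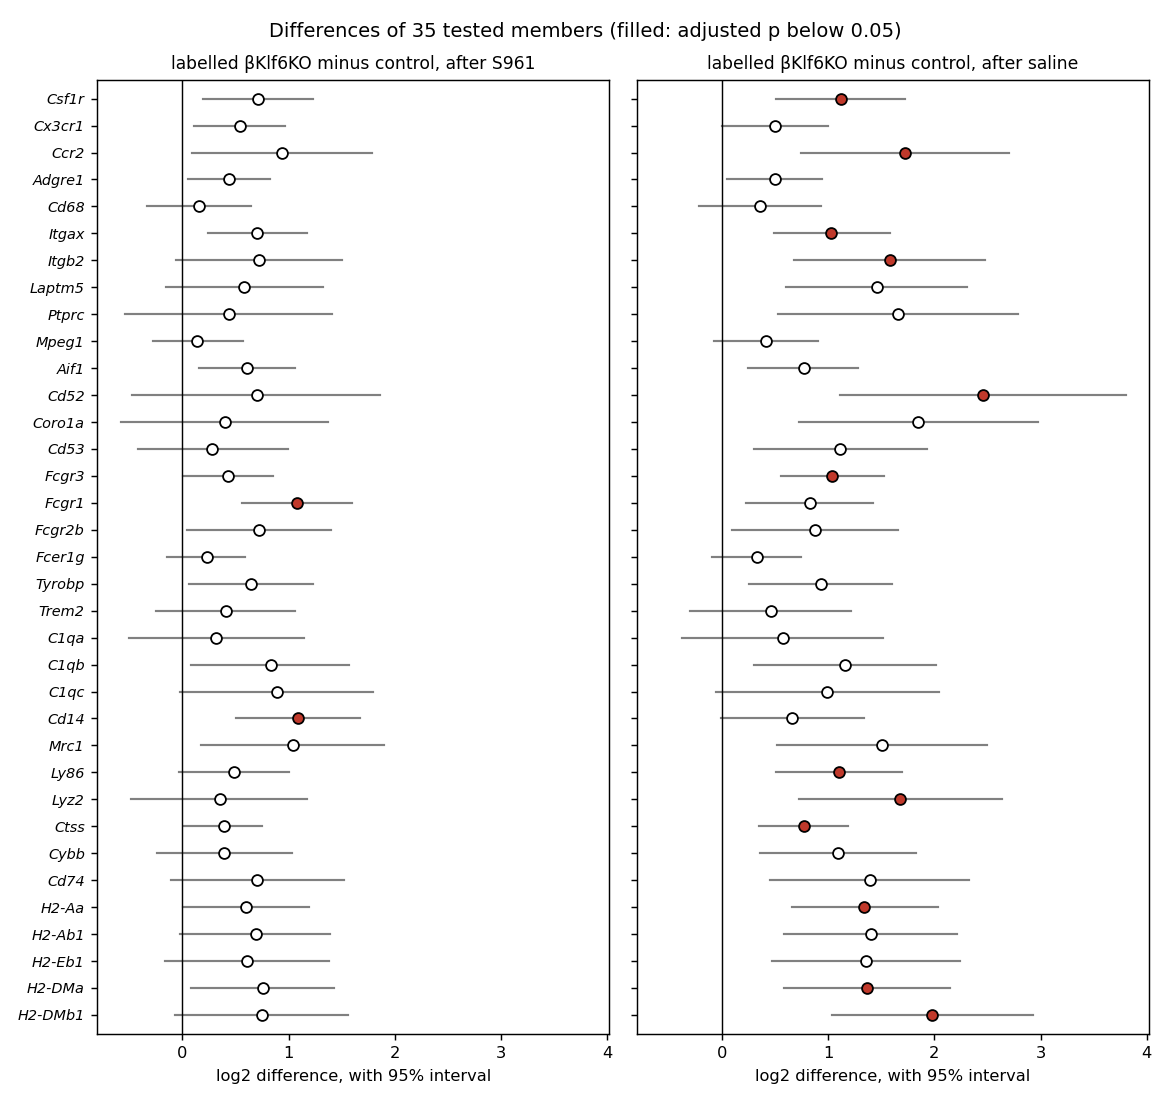
Points are log2 differences of the 35 tested members between libraries labelled βKlf6KO and control, after S961 (left) and after saline (right), with 95% intervals from limma, and filled points have an adjusted p below 0.05. All points lie right of 0, with 2 filled after S961 and 12 after saline.

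No member passed the test for a response to S961 in either labelled genotype. In libraries labelled βKlf6KO, none of the 35 members was called between S961 and saline, and none of all genes was called (0%); an unadjusted p below 0.05 was reached by 3 members, Cd52, Lyz2 and Coro1a, and by 413 genes. Cd52 had 0.718, 1.06 and 10.4 CPM after S961 against 0.856, 5.47 and 15.4 CPM after saline, a difference of -1.56 ± 0.61. Lyz2 had 36.8, 51.1 and 225 CPM after S961 against 31.5, 185 and 474 CPM after saline, a difference of -1.04 ± 0.43. For both genes 4 of the 6 saline libraries lay above 7 of the 8 S961 libraries, and the ranges overlapped through S961 replicate 8 and saline replicates 2 and 5. Of the 35 differences 30 were below 0, with a median of -0.28, a lowest value for Cd52 and a highest of 0.36 for Cd14. Over all genes 50.8% were above 0 and the median was 0.

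In libraries labelled control, none of the 35 members and none of all genes was called between S961 and saline (0%), and an unadjusted p below 0.05 was reached by 0 members and 104 genes. The median difference was 0.20, from -0.20 for C1qa to 0.52 for Cybb, and 25 members were above 0. The C1q subunits differed by -0.20 to 0.01, and class II members by -0.05 to 0.47. The difference of the S961 responses, βKlf6KO minus control, was called for no member and for no gene (0%). An unadjusted p below 0.05 was reached by 1 member, Lyz2 (-1.33 ± 0.61), and by 350 genes. Its median over the members was -0.47, from -1.76 for Cd52 to 0.42 for Cd14. The member differences between labelled genotypes after saline and after S961 were therefore not shown to differ from each other, and the 95% intervals were wide, at -3.54 to 0.02 for Cd52 and -1.64 to 0.16 for H2-Aa.

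Genes that work with the members were described from lists drawn up by function. Of 9 other tested class II and co-stimulation genes, 2 rose after saline in libraries labelled βKlf6KO, the co-stimulatory ligand Cd86 (1.75 ± 0.46, adjusted p = 0.0344) and H2-Ob, a B cell gene that restrains H2-DM (4.43 ± 1.17, 0.0367). Cd86 had 0.754, 3.36 and 7.21 CPM in libraries labelled βKlf6KO saline against 0.514, 0.783 and 1.11 CPM in those labelled control saline, so the lowest lay in the control range. After S961 the lysosomal protease Ctsl rose (0.63 ± 0.17, adjusted p = 0.0346), with 994, 1420 and 1840 CPM against 580, 915 and 1300 CPM in controls. The X-box factors Rfx5, Rfxap and Rfxank were measured in every library and were not called in these comparisons.

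Median differences of MHC class I presentation genes were small. Single genes of the list ranged from -0.34 to 0.67 after saline and from -0.40 to 0.75 after S961. Of 14 tested, none was called after saline (limma; smallest adjusted p 0.116, for Calr), and the median was 0.14. After S961 the chaperone Calr fell (-0.40 ± 0.08, adjusted p = 0.00753), with 702, 731 and 836 CPM in libraries labelled βKlf6KO against 852, 972 and 1190 CPM in those labelled control. All βKlf6KO libraries lay below all controls for Calr, and the median of the list was 0.13.

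Of 35 other tested myeloid genes, 2 rose after saline, Cd86 and the migration factor Dock2 (1.70 ± 0.46, adjusted p = 0.0417), with a list median of 0.79. None was called after S961 (smallest adjusted p 0.148, for Lyn), with a median of 0.34. Of 15 tested ligands that act on macrophages, 3 rose after S961, the Csf1r ligand Il34 (1.26 ± 0.33, adjusted p = 0.0324), Igf1 (0.90 ± 0.25, 0.0399) and Tgfb1 (0.78 ± 0.23, 0.0486). Il34 had 0.926, 1.96 and 3.34 CPM in libraries labelled βKlf6KO S961 against 0.320, 0.832 and 1.57 CPM in those labelled control S961, with overlapping ranges. None of the 15 was called after saline (smallest adjusted p 0.37, for Tgfb1). Of 12 neutrophil genes 1, Il1r2, was in the table, and its differences were 0.62 (adjusted p = 0.0531) after S961 and 0.73 (0.0662) after saline.

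Members varied together between mice of the same group. After group means were removed, Pearson's r over the 28 libraries was above 0 for 525 of 595 pairs of tested members, with a median of 0.516; these points share libraries, depth and library composition, and no test was made. The highest was 0.980 for C1qb and C1qc, and the lowest was -0.675 for Mpeg1 and C1qa. H2-Aa followed the mean of the other members most closely (r = 0.965), before Laptm5 (0.932) and Itgb2 (0.912), and it had r = 0.954 with H2-Ab1, 0.945 with H2-Eb1 and 0.882 with Csf1r. The members that followed the mean least were Mpeg1 (0.211), Adgre1 (0.273), Cx3cr1 (0.329) and Fcer1g (0.356). Outside the members, the 10 genes most like the member mean included Hvcn1 (0.934), Ncf1 (0.923), Itgal (0.920), Parvg (0.913), Irf8 (0.901), Tnfrsf1b (0.898), Myo1f (0.897), Arhgdib (0.894) and Nfam1 (0.892).

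The same members were unequal in how far they followed the lymphocyte list. With the mean of that list, over the same 28 libraries and with group means removed, r was 0.933 for Cd52, 0.890 for Lyz2, 0.862 for Mrc1 and 0.794 for Ptprc. It was 0.0400 for Trem2, 0.0909 for Adgre1, 0.107 for Cx3cr1 and 0.110 for C1qa. Tyrobp (0.314) and C1qb (0.327) lay between these.

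The first principal component, taken over all 13591 genes tested, sorted the members by the GC content of their transcripts. GC content was examined for the members only, so whether this is particular to them was not tested. GC content of the longest coding transcript ranged from 39.4% for Ccr2 to 59.5% for C1qa, with a median of 51.6%. Across the 35 tested members Spearman's rho between GC content and each gene's r with the first principal component was -0.89, a description across genes that share the same libraries. C1qa (r = -0.952), Trem2 (-0.927), C1qb (-0.889) and Tyrobp (-0.875) ran against the component, and Mpeg1 (45.7% GC, 0.678), Cd53 (0.541) and Cybb (42.4%, 0.5) ran with it. Fcer1g, at 51.8% GC and r = 0.487, departed from its neighbours in GC content. The libraries highest on the component were control libraries, control S961 replicate 2 and control saline replicate 4 among them. These 2 had the lowest C1qa at 4.67 and 6.56 CPM, and the lowest Ins2 of their groups at 5080 and 9150 CPM. With the component as a covariate, 9 members (25.7%) were called after S961, where 28.2% of all genes were called, and 27 (77.1%) after saline, where 20.8% of all genes were. Without the 3 libraries highest on the component, 2 members were called after S961 (5.71%, against 6.31% of all genes) and 14 after saline (40%, against 5.08% of all genes).

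**Figure D5:**
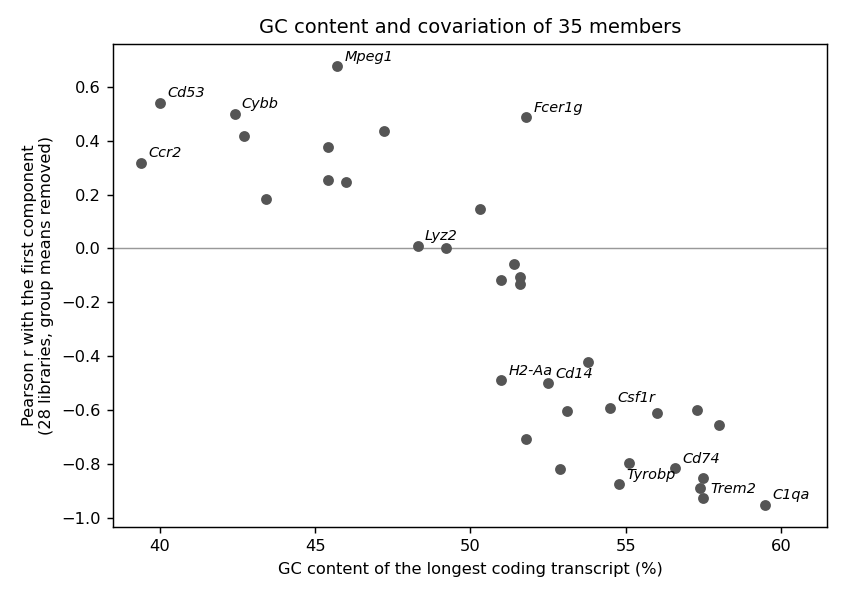
Each point is 1 of the 35 tested members, with the GC content of its longest coding transcript (%) on the horizontal axis and its Pearson r with the first principal component over 28 libraries, group means removed, on the vertical axis. Genes rich in GC such as C1qa lie low, genes poor in GC such as Cd53 lie high, and Fcer1g lies above the band.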

How the data were processed

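Islet RNA of 28 mice was sequenced (TruSeq Stranded mRNA, 125-base single reads, per the labels' protocols). The authors deposited log2 CPM values of 14219 genes in each library as 1 table. The submitters' processing notes list STAR 2.5.3a, HTSeq 0.9.1 and edgeR as tools and GRCm38 as the build. How strand was handled was not given in the sources used here. Overlapping or antisense genes may therefore share reads (Csf1r with Hmgxb3, Cx3cr1 with Wdr48, H2-DMa with Brd2, Ciita with Dexi, Coro1a with Bola2). Cx3cr1 also overlaps Gorasp1 and Csrnp1 on its own strand, where strand cannot separate reads, so its count is uncertain. The deposited log2 values have the form of reads plus 0.5 over a scaled library size, and inverting it gave whole reads within 0.05 for 100% of values. A count of 0 allows up to 3 reads, 0.0685 to 0.1053 CPM, for counting error only. Every column matched 1 library. Over genes, 86 pairs within groups had a chi-square per degree of freedom of at least 32.1, so no pair agreed within sampling noise.

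Genes with 1 CPM in at least 6 libraries were kept (13591; 628 removed). A model of the 4 group means over 28 libraries was fitted by limma 3.58.1 (R 4.3.3) with an intensity trend. Genes were called at a two-sided Benjamini-Hochberg adjusted p below 0.05. The fit was also run on simulated data, in which departures from the group means were shuffled between libraries. Those data do not keep the unequal spread of the real groups, so the run cannot show how the fit handles it. Mice, 1 per library, are the replicates. Coordinates and transcripts are from GENCODE M21 on GRCm38, and promoters from RefSeq, matched by symbol for 27 of 40 members. Near-identical copies (Lyz1, Fcgr2b, H2-DMb2) make Lyz2, Fcgr3 and H2-DMb1 uncertain. The members and lists were chosen with earlier results of these data known. All members were named, those called in full and the others by range or nearest to the threshold; of each other list up to 3 called genes or the 1 with the smallest p; and the 10 genes most like the member mean. Some genes these rules name are not reported here.

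The alternatives were no filter, a filter at 5 CPM, a floor at 1 CPM, quantile and median scaling, library weights, only the groups compared, lane, replicate number or the first component as a covariate, no trend, voom weights, 3 libraries left out, and each library left out. The lymphocyte covariate was added after seeing the data.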

Additional observations from a re-analysis of the deposited data

Results flagged for a closer look

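Of 152 sets of 1 member in 1 labelled group, 11 held a library far from its group (Dixon's criterion), and chance alone flags about 1 in 20. Values are log2 CPM. βKlf6KO S961 replicate 8 was flagged as highest for 5 genes: Fcgr2b at 1.72 (nearest library 0.96), H2-Aa at 6.15 (5.13), H2-Ab1 at 5.22 (3.93), Aif1 at 2.54 (1.57) and Cd52 at 3.38 (1.31). It was the highest of its group for further members without a flag, such as Csf1r and Cd74. Its lymphocyte sum of 1080 CPM was also the highest of all libraries, and the part of lymphocytes in these values was not tested. Control saline replicate 4 was flagged as lowest for 4 genes: C1qb at 1.21 (2.52), C1qc at 0.04 (1.30), H2-Eb1 at 1.82 (3) and Trem2 at -1.11 (0.26), with 15 reads for Trem2. It stood at 98.4 on the first principal component, the second highest value, and the part of that component was not tested. Control S961 replicate 2, the highest on the component at 139.6, was flagged as lowest for Itgb2 at -0.22 (1.13). Control S961 replicate 4 was flagged as highest for Cd52 at 2.39 (0.22), with a lymphocyte sum of 500 CPM.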

How the results depend on the processing

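For labelled βKlf6KO against control after S961, 2 of 35 members were called. The count was 1 with a filter at 5 CPM (of 23 left), 1 with quantile scaling, 0 with library weights, 0 with only the groups compared, 9 after adding the first component, 1 after adding the lymphocyte mean, and 0 to 4 with each library left out. After saline, 12 were called. The count was 1 with the filter at 5 CPM, 7 with quantile scaling, 32 with library weights, 5 with only the groups compared, 7 with lane as a covariate, 27 after adding the first component, 0 after adding the lymphocyte mean, and 1 to 19 with each library left out. The cause was not tested. Calls over all genes moved as well. After S961 they were 593, and 483 with the filter, 395 with quantile scaling, 560 with library weights, 35 with only the groups compared, 3829 with the component and 171 with the lymphocyte mean. After saline they were 378, and 117, 296, 3018, 467, 2821 and 55 in the same order, with 397 for lane. With each library left out they ran from 177 to 817 after S961 and from 214 to 532 after saline. No filter, the floor, median centring, no trend, voom and the fit without 3 libraries kept the counts within 1.5 times. Voom on the recovered reads called 680 of all genes after S961 and 390 after saline. The 3 comparisons of S961 responses had 0 members called under every alternative run, each library left out included. No called member changed sign in any alternative run.

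With replicate number as a block, 2 members were called after S961, where 4.52% of all genes were. After saline 10 were called, where 2.6% of all genes were, and 0 members were called in each S961 comparison. The numbers do not pair the mice: 38 same-numbered pairs of libraries had r between -0.712 and 0.85 (median -0.0702), and 2 of 28 libraries correlated best with their own number.

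Limits are the 6 to 8 mice per group, the dependence of the saline count on single mice, and the unequal levels among mice labelled βKlf6KO saline. Low reads for Ciita, Ccr2, H2-DMb1 and Fcgr1 are another.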
